A study of Rattus norvegicus with 68 samples.

Results

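Transcripts of liver-made plasma proteins were followed in the blood of rats given acetaminophen. The list held 47 genes, chosen by name as plasma proteins made in the liver, and 39 of them had at least 1 probe with their gene name among the 22075 probes of the array. These 39 are 39 of 9653 genes measured. Alb (albumin), Hp, F7, F9, Kng1, Serpinf2, C5 and Cfb had no probe listed with their name and were not analysed here. The 39 genes comprised 10 of 12 carriers and other transport proteins, 9 of 9 apolipoproteins, 6 of 9 fibrinogen chains and coagulation factors, 8 of 9 anticoagulants, fibrinolysis proteins and protease inhibitors, and 6 of 8 complement and recognition proteins.

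The rats were male F344/N animals of 10 to 12 weeks, and 34 of them received 150, 1500 or 2500 mg/kg acetaminophen by gavage, divided into 2 doses, in 0.5% ethyl cellulose. Blood was taken at 6, 12 or 24 h. Each of the 9 combinations of dose and time held 4 rats, except 150 and 1500 mg/kg at 12 h with 3 rats each. For each time there was 1 vehicle RNA, pooled from 4 animals at 6 and 12 h and from 6 at 24 h by the design text, although the labels at 6 and 12 h carry a single rat number. Each treated rat was compared with this sample on 2 dye-swapped arrays, and the mean of both is its value. The values are log2 ratios of treated over vehicle, so the vehicle stands at 0 and a value of 1 is a doubling. No source used here states which dye is the numerator of the deposited ratio. Cy5 over Cy3 was taken as the likely direction, and every sign below would turn if it ran the other way.

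The liver secretes most proteins of blood plasma, among them carriers, lipoprotein components, clotting factors, protease inhibitors and complement. Their mRNAs are abundant in hepatocytes and mostly scarce in circulating cells, and they were followed as a possible readout of liver-derived RNA in blood. The tissue the RNA came from was not tested. Acetaminophen at high doses injures hepatocytes through a reactive metabolite. Several members, such as C3, Apoe, Apoc1 and Serpina1, are also known from leukocytes or macrophages, and many are acute phase proteins, whose production in the liver moves with inflammation. These arrays give ratios and no levels, so whether a transcript is present in vehicle blood cannot be read from them, and fewer cells of a type and less RNA per cell cannot be told apart.

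The arrays carried strong dye effects, and the 2 arrays of a rat, once turned to treated over vehicle, correlated between -0.86 and 0.30 over named probes. Dye effects that are equal on both arrays cancel in the mean of the pair. Rat 3631, given 2500 mg/kg and taken at 24 h, stood apart: its array with the treated RNA in Cy5 followed the common dye profile with a slope of 0.413, against 1.24 for its other array. The SD of its log2 ratios over genes was 0.58 for the members, the largest among the 4 rats of its group, whose other values were 0.23 to 0.32. Rat 3619, at 150 mg/kg and 24 h, had a larger SD over the members (0.71). Over named probes the SD of rat 3619 was 0.26, against 0.63 for rat 3631. The counts and member calls against vehicle at 2500 mg/kg and 24 h are therefore given with and without this rat. Genes of several blood cell types also moved at 24 h: at 2500 mg/kg, 7 of 13 neutrophil genes were higher and 1 lower, while 10 of 15 T cell, 5 of 8 B cell, 9 of 18 erythroid and 5 of 9 platelet genes were lower and 0, 0, 2 and 0 higher. Of all genes 10.9% were higher and 15.6% lower. Of 17 monocyte and macrophage genes, 3 (17.6%) were higher and 2 (11.8%) lower, near those shares. Without rat 3631, 8 neutrophil genes were higher and 0 lower, 8 T cell, 5 B cell, 11 erythroid and 5 platelet genes were lower and 0, 1, 0 and 1 higher, and 4 monocyte and macrophage genes were higher and 1 lower. Of all genes 8.27% were then higher and 10.8% lower.

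At 24 h the 2 high doses raised part of the list, and the low dose and the early times gave few calls or none. At 2500 mg/kg and 24 h, 14 of 39 members (35.9%) were higher than vehicle and 3 (7.69%) lower at a limma adjusted p under 0.05, where 10.9% of all 9653 genes were higher and 15.6% lower. Without rat 3631, 10 members were higher and 0 lower, beside 8.27% and 10.8% of all genes. With only the 24 h rats in the fit 6 were higher and 0 lower, beside 1.64% and 6.12%, and 6 and 0 with standard errors widened for the spread of the vehicle pool, beside 3.11% and 7.22%. At 1500 mg/kg and 24 h, 4 members were higher and 0 lower (12 and 0 at an unadjusted p under 0.05), beside 2.34% and 5.74% of all genes. At 150 mg/kg and 24 h limma called 0 members, and 0.0% of all genes, with 0 members higher and 3 lower at an unadjusted p under 0.05.

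The median over the 39 members in each rat shows how small the shift was. At 24 h it ran from -0.02 to 0.03 at 150 mg/kg, from 0.03 to 0.10 at 1500 mg/kg, and was 0.04, 0.06, 0.07 and 0.21 at 2500 mg/kg, the highest of these in rat 3631. The 4 rats of 2500 mg/kg lay above all 4 rats of 150 mg/kg, while the lowest of 1500 mg/kg (0.0255) lay below the highest of 150 mg/kg (0.0297). At 6 and 12 h the group means of this median lay between 0.00 and 0.02 at all doses. Among single rats of 2500 mg/kg, rat 3597 reached 0.045 at 6 h and rat 4135 reached 0.046 at 12 h. Both lay above the 0.041 of rat 3629 at 2500 mg/kg and 24 h. For the 45 measured hepatocyte enzymes and transporters the median per rat at 24 h ran from -0.02 to 0.03 at 150 mg/kg, was 0.08, 0.01, 0.01 and 0.03 at 1500 mg/kg, and 0.04, 0.06, 0.07 and -0.08 (rat 3631) at 2500 mg/kg. Of the 1500 mg/kg rats 3 lay within the range of 150 mg/kg, and single rats at 6 and 12 h reached 0.05.

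**Figure D1:**
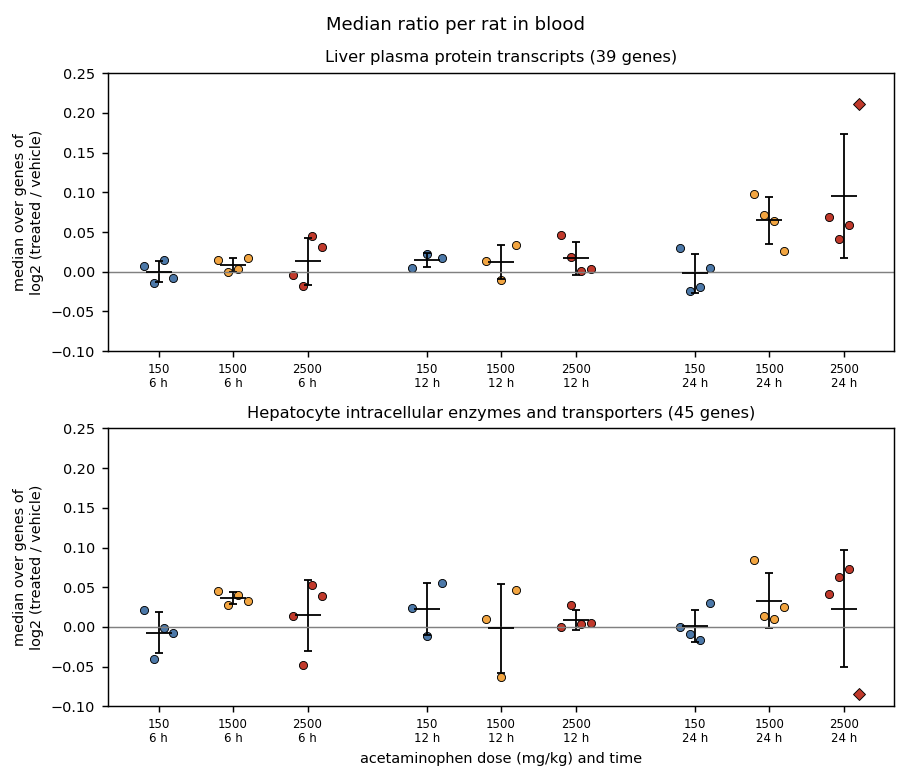
Median log2 ratio of treated over vehicle per rat (vertical axis) for the 39 members (top) and for 45 hepatocyte intracellular genes (bottom), by dose in mg/kg and time; points are rats, bars the mean ± SD, the diamond is rat 3631. The 4 rats at 2500 mg/kg and 24 h sit above the 4 at 150 mg/kg and 24 h in the top panel, and in the bottom panel rat 3631 lies at -0.08.

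Between doses at 24 h, 6 members (Ahsg, Ambp, Apoc1, Apoh, C3 and Ces1c) were higher at 2500 than at 150 mg/kg and 0 lower, beside 2.56% and 5.09% of all genes. Ahsg, C3 and Ces1c were also higher at 1500 than at 150 mg/kg, beside 0.632% of all genes higher and 1.51% lower. With only the 24 h rats in the fit, Ces1c alone stayed called at 2500 against 150 mg/kg, and no member at 1500 against 150 mg/kg. Values of all 4 rats at 2500 mg/kg exceeded all 4 at 150 mg/kg for 8 members (Ahsg, Serpina6, Ces1c, Apoc1, Apoc3, Apoh, Fgg and C3), which held for 4.42% of all genes, and the opposite held for 0 members and 7.99% of all genes. Both comparisons share the rats at 150 mg/kg. No member was called between 2500 and 1500 mg/kg at 24 h, where 0 genes in all passed (761 at an unadjusted p under 0.05, of them 1 member higher and 3 lower).

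The calls of Ces1c, Apoc1, Fgg, Itih4 and C3 against vehicle at 2500 mg/kg and 24 h were kept in all 9 other processing settings and with each rat left out in turn. The 250 bases before their RefSeq start (assembly GRCr8, on the gene's strand) are printed with the motifs searched for, and no motif was in all 5 windows. Capitals mark TTGCNNAA, the core letters of a C/EBP site, and TATAAA, each searched on both strands, with no overlap between the marked stretches. The HNF1 motif and CAAAGTCC (HNF4) were searched too and are not in these 5 windows.
Ces1c, chr19:30099197-30099446, plus strand: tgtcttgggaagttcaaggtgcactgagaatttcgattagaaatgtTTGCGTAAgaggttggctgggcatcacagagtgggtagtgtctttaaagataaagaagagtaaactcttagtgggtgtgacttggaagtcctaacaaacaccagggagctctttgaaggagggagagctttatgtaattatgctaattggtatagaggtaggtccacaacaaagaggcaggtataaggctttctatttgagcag
C3, chr9:2201340-2201589, minus strand: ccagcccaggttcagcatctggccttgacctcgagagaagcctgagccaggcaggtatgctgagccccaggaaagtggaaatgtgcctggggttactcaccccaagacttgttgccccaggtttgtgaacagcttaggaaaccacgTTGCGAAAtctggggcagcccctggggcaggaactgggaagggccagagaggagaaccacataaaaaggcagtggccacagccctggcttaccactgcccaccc
Apoc1, chr1:88478306-88478555, minus strand: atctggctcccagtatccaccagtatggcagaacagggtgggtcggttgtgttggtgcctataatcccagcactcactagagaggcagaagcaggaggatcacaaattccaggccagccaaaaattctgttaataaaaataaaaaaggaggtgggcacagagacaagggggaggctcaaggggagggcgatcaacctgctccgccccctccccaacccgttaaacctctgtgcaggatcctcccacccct
Fgg, chr2:170652833-170653082, plus strand: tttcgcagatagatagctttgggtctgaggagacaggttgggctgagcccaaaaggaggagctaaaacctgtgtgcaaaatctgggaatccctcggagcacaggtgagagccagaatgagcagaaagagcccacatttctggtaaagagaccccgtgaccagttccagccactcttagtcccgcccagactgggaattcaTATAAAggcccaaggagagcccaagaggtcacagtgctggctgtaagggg
Itih4, chr16:6086735-6086984, plus strand: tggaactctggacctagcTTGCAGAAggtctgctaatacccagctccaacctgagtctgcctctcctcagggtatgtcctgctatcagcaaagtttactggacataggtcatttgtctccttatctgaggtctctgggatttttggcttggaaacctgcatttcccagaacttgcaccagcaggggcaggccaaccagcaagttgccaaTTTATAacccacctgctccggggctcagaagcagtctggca

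TTGCNNAA lies in the windows of Ces1c, C3 and Itih4, and TATAAA in those of Fgg and, on the opposite strand, Itih4. A promoter window was found for 30 of the 39 members, and 12 of them (40.0%) held TTGCNNAA, against 9.2% of all 27457 rat promoter windows of this length. TATAAA was in 6 of the 30 (20.0%) and 13.1% of all windows, the HNF1 motif in 1 (3.33%) and 0.331%, and CAAAGTCC in 1 (3.33%) and 1.17%. These are matches of letters and not binding sites.

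Among the carriers and other transport proteins, Ces1c, a carboxylesterase that rodents secrete into plasma, had the largest difference from vehicle at 2500 mg/kg and 24 h of all 39 members. Its log2 ratios at 24 h were 0.05, -0.27, -0.15 and 0.35 at 150 mg/kg, 0.34, 1.06, 0.79 and 0.71 at 1500 mg/kg, and 1.03, 0.74, 1.12 and 1.38 at 2500 mg/kg. All 4 rats of 2500 mg/kg were above all 4 of 150 mg/kg, while 1 rat of 1500 mg/kg, at 0.34, lay within the range of the low dose. At 2500 mg/kg Ces1c was 1.07 ± 0.26 above vehicle (SD, n = 4, 2.10-fold, limma adjusted p = 1.7e-06), and 1.07 above 150 mg/kg (SE 0.19, limma adjusted p = 0.000626). Without rat 3631 both differences were 0.97.

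At 1500 mg/kg Ces1c was 0.73 ± 0.30 above vehicle at 24 h (SD, n = 4, limma adjusted p = 0.000525) and 0.55 ± 0.15 at 12 h (SD, n = 3, limma adjusted p = 0.0363), and the 12 h call was lost without any 1 of its 3 rats. At 12 h the log2 ratios were 0.22, 0.98 and 0.04 at 150 mg/kg, 0.70, 0.40 and 0.57 at 1500 mg/kg, and 0.40, 0.49, 0.10 and -0.29 at 2500 mg/kg, so that the groups overlapped. The difference between 2500 and 150 mg/kg was greater at 24 h than at 12 h by 1.31 (SE 0.28, limma adjusted p = 0.0313), where 0.0414% of all genes were called in this direction, 0.269% in the other, and no other member, and this call was lost with only the 12 and 24 h rats in the fit and without rat 3631. At 6 h the 12 rats lay between -0.36 and 0.42 with no call.

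Ces1c carried a strong dye effect. Its mean over rats was -1.02 on the log2 scale for arrays with the treated RNA in Cy5, and as large upward with it in Cy3. The 2 arrays of Ces1c had the same sign in 4 of 34 rats. At 2500 mg/kg and 24 h the arrays with the treated RNA in Cy5 read 0.29, -0.51, 0.49 and 2.26 and those with it in Cy3 read 1.78, 1.99, 1.76 and 0.50, in the order of rats 3628, 3629, 3630 and 3631. The first 3 rats had the lower value on the Cy5 array and rat 3631 the higher one. The means of both arrays lay between 0.74 and 1.38 in the 4 rats.

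**Figure D2:**
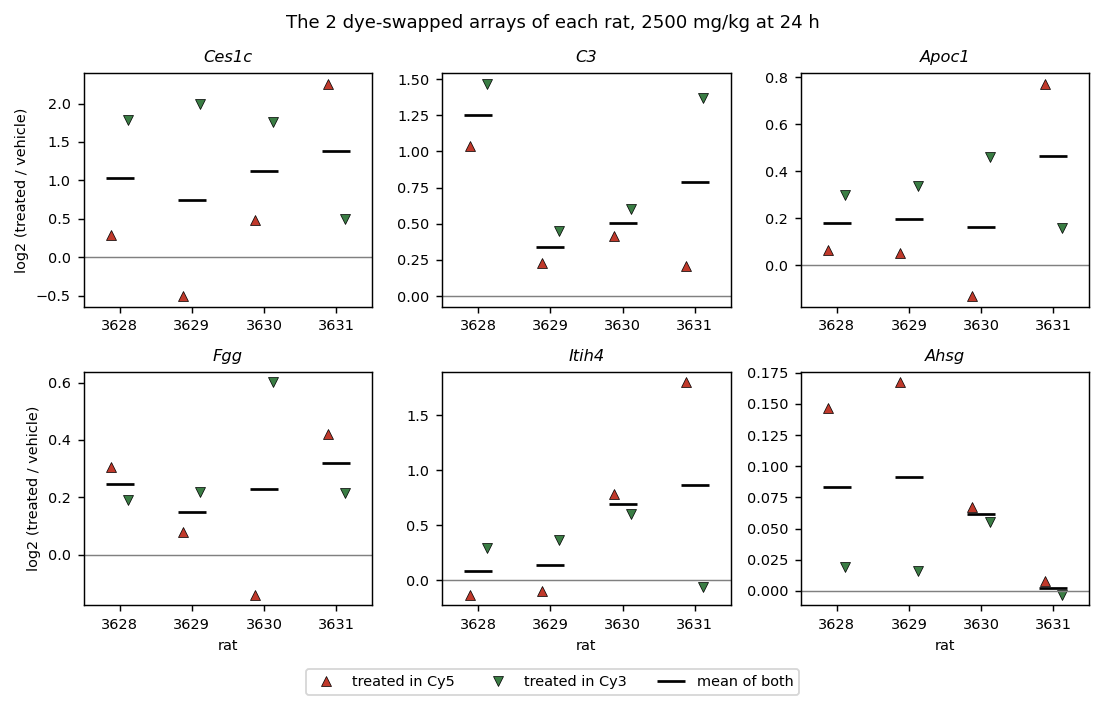
Log2 ratio of treated over vehicle (vertical axis) on each of the 2 dye-swapped arrays of the 4 rats at 2500 mg/kg and 24 h, for 6 members; triangles are single arrays by the dye of the treated RNA, bars their mean. For Ces1c and Apoc1 the Cy5 array is the lower one in rats 3628, 3629 and 3630 and the higher one in rat 3631.

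Ahsg (fetuin-A, a carrier that binds calcium phosphate and a negative acute phase protein) moved by a small amount. Its log2 ratios at 24 h were -0.06, -0.11, -0.04 and -0.03 at 150 mg/kg, 0.10, 0.04, 0.06 and 0.08 at 1500 mg/kg, and 0.08, 0.09, 0.06 and 0.00 at 2500 mg/kg. Every rat of both high doses was above every rat of the low dose. It was 0.12 higher at 2500 than at 150 mg/kg (SE 0.03, limma adjusted p = 0.0213) and 0.13 higher at 1500 than at 150 mg/kg (SE 0.03, limma adjusted p = 0.0247). Against vehicle it was 0.06 ± 0.04 higher at 2500 mg/kg (SD, n = 4, limma adjusted p = 0.0478), and 0.08 without rat 3631 (limma adjusted p = 0.0147). The call against vehicle was kept in 10 of 34 fits that left out 1 rat and in 5 of 9 other settings, with an adjusted p of up to 0.266. The difference from 150 mg/kg was kept in 33 of the 34 fits at 2500 mg/kg, lost without rat 3618, and in 30 at 1500 mg/kg. With only the 24 h rats in the fit it was lost at both doses. At 6 and 12 h the 22 rats lay between -0.09 and 0.08.

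Ambp, the precursor of alpha-1-microglobulin and bikunin, read -0.02, 0.09, -0.38 and -0.04 at 150 mg/kg and 24 h, 0.12, 0.22, 0.23 and 0.11 at 1500 mg/kg, and 0.18, 0.66, -0.05 and 0.45 at 2500 mg/kg. One rat of the high dose lay within the range of the low dose. The mean at 2500 mg/kg was 0.31 ± 0.31 above vehicle (SD, n = 4, limma adjusted p = 0.00559, and 0.0451 without rat 3631) and 0.40 above 150 mg/kg (limma adjusted p = 0.0298), and without rat 3631 the second call was lost (0.35, limma adjusted p = 0.0663). Leaving out rat 3629, at 0.66, ended both calls, as did a fit of only the 24 h rats.

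Serpina6 (corticosteroid-binding globulin) read 0.12, 0.06, 0.10 and 0.09 at 2500 mg/kg and 24 h, against -0.05, -0.05, 0.05 and -0.01 at 150 mg/kg, with no overlap. It was 0.09 ± 0.02 above vehicle (SD, n = 4, limma adjusted p = 0.00783, and 0.0149 without rat 3631). The difference from 150 mg/kg had a limma adjusted p of 0.0552, and of 0.0485 without rat 3631. Fetub (fetuin-B) was called at 1500 mg/kg and 24 h alone, at 0.26 ± 0.23 (SD, n = 4, limma adjusted p = 0.0125), where its 4 rats spread from 0.01 to 0.47, and the call was lost without rat 3625 or rat 3626.

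Hpx (hemopexin, which binds free heme) was higher at 6 h. Its log2 ratios were 0.16, -0.12, 0.12 and 0.09 at 150 mg/kg, 0.28, 0.31, 0.28 and 0.27 at 1500 mg/kg, and 0.32, 0.05, 0.21 and 0.28 at 2500 mg/kg. The 4 rats of 1500 mg/kg lay above all of 150 mg/kg, and those of 2500 mg/kg overlapped them. Against vehicle Hpx was 0.29 ± 0.02 higher at 1500 mg/kg (SD, n = 4, limma adjusted p = 0.00398) and 0.22 ± 0.12 higher at 2500 mg/kg (SD, n = 4, limma adjusted p = 0.0427), and at 24 h it was not called at any dose. Both calls were lost when the standard errors were widened for the spread of the vehicle pool, whose 1 sample all rats of a time share, and the call at 2500 mg/kg was kept in 25 of 34 fits that left out 1 rat.

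Of the other carriers, Orm1 (alpha-1-acid glycoprotein) was lower at 2500 mg/kg and 24 h by 0.12 on the log2 scale, with 3 rats between -0.06 and 0.03 and rat 3631 at -0.43. Without that rat it read -0.02 and was not called. Vtn (vitronectin) was called without rat 3631 alone, at 0.16 against vehicle (limma adjusted p = 0.00128) and 0.19 against 150 mg/kg (limma adjusted p = 0.00796), since that rat stood at -0.23 and the others at 0.10, 0.23 and 0.15. A1bg and Cp (ceruloplasmin) passed in no comparison.

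Among the apolipoproteins, Apoc1, a component of lipoproteins that macrophages also make, was called at both high doses. At 24 h its log2 ratios were -0.02, 0.01, 0.07 and 0.02 at 150 mg/kg, 0.26, 0.12, 0.10 and 0.10 at 1500 mg/kg, and 0.18, 0.20, 0.16 and 0.46 at 2500 mg/kg. Each rat of both high doses was above each of the low dose. It was 0.25 ± 0.14 above vehicle at 2500 mg/kg (SD, n = 4, 1.19-fold, limma adjusted p = 5.21e-05) and 0.18 without rat 3631 (limma adjusted p = 0.00107). It was 0.15 ± 0.08 at 1500 mg/kg (SD, n = 4, limma adjusted p = 0.0201) and 0.23 higher at 2500 than at 150 mg/kg (limma adjusted p = 0.0118). Without rat 3631 the last was 0.16 (limma adjusted p = 0.0361), and without rat 3623, at 0.26, the call at 1500 mg/kg was lost. The call at 1500 mg/kg and that between doses were lost with only the 24 h rats in the fit. At 6 and 12 h the 22 rats lay between -0.17 and 0.09.

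Apoh (beta-2-glycoprotein I, a plasma protein that binds phospholipids) read 0.19, 0.12, 0.02 and 0.31 at 2500 mg/kg and 24 h, against -0.03, 0.00, 0.01 and -0.06 at 150 mg/kg. The lowest of the high-dose rats, at 0.02, lay just above the highest of the low-dose ones. It was 0.16 ± 0.12 above vehicle (SD, n = 4, limma adjusted p = 0.00127) and 0.18 above 150 mg/kg (limma adjusted p = 0.0222), and without rat 3631 these were 0.11 (limma adjusted p = 0.0222) and 0.13 (limma adjusted p = 0.063). The call between doses was also lost without rat 3617 or rat 3620. With only the 24 h rats in the fit both calls were lost, the one against vehicle at a limma adjusted p of 0.0518.

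Apoc3, an inhibitor of lipoprotein lipase, was higher at 1500 mg/kg and 6 h by 0.24 ± 0.02 (SD, n = 4, limma adjusted p = 0.0142) and at 2500 mg/kg and 24 h by 0.18 ± 0.05 (SD, n = 4, limma adjusted p = 0.0444), the 24 h call lost without any 1 of its own 4 rats (limma adjusted p = 0.0768 without rat 3631). Its rats at 6 h read 0.16, 0.16, 0.19 and 0.05 at 150 mg/kg, 0.21, 0.26, 0.24 and 0.23 at 1500 mg/kg, and 0.21, 0.13, 0.04 and 0.29 at 2500 mg/kg. The 1500 mg/kg rats lay above the 150 mg/kg rats, and those of 2500 mg/kg overlapped both. Apoa4 was higher at 1500 mg/kg and 6 h (0.23, 0.19, 0.21 and 0.14; limma adjusted p = 0.00852) and lower at 2500 mg/kg and 24 h by 0.15 on the log2 scale (0.01, -0.16, -0.14 and -0.33), a call lost without rat 3631. At 6 h both calls were lost with standard errors widened for the vehicle pool, and also without rat 3592, 3593 or 3594 for Apoc3 and without rat 3591 for Apoa4.

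The remaining apolipoproteins depended on single rats. Apob, the structural protein of very low density lipoprotein, read -0.40, 0.23, 1.03 and 0.37 at 2500 mg/kg and 24 h, a mean of 0.31 that passed (limma adjusted p = 0.0448) and did not pass without rat 3631 (limma adjusted p = 0.14), rat 3629 or rat 3630. Of its 2 probes 1 was called (0.09, limma adjusted p = 0.0038) and the other not (0.52, limma adjusted p = 0.0869). Apoa1, the main protein of high density lipoprotein, was lower by 0.20 on the log2 scale with rat 3631 at -0.77 and the others at -0.06, 0.02 and 0.01, and without it the mean was -0.01. Apoe, Apoa2 and Apoc2 were not called, Apoe with a limma adjusted p of 0.0554 and a dye effect of -1.10 on arrays with the treated RNA in Cy5.

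**Figure D3:**
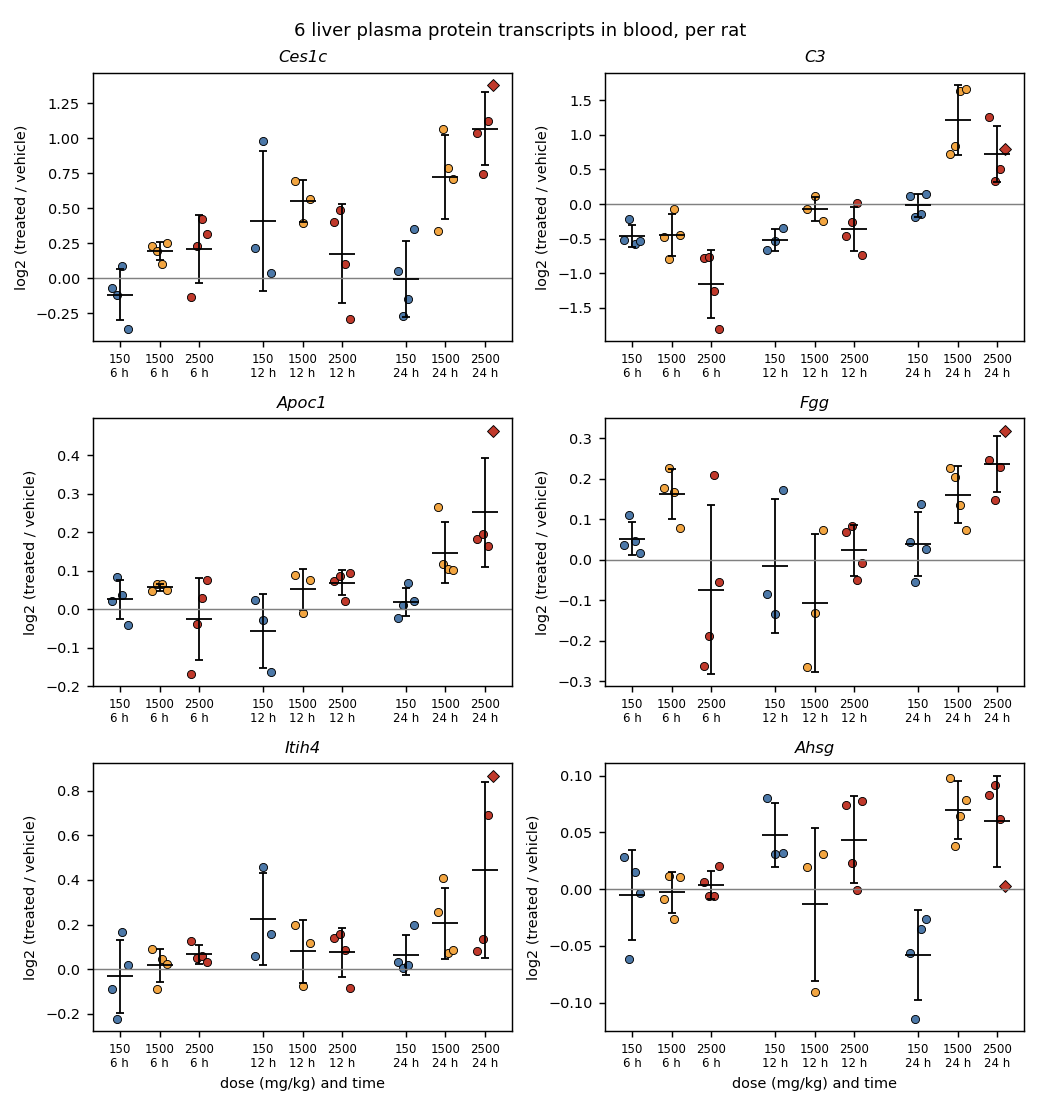
Log2 ratio of treated over vehicle (vertical axis) of 6 members in each rat, by dose in mg/kg and time; points are rats, bars the mean ± SD, the diamond is rat 3631. Ces1c, C3, Apoc1 and Fgg sit higher at 2500 mg/kg and 24 h than at 150 mg/kg and 24 h in every rat, and C3 lies between -1.80 and -0.76 at 2500 mg/kg and 6 h.

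Fibrinogen, the soluble precursor of the clot, is assembled from the alpha, beta and gamma chains, encoded by Fga, Fgb and Fgg. Fgg read 0.25, 0.15, 0.23 and 0.32 at 2500 mg/kg and 24 h, against 0.04, -0.06, 0.14 and 0.03 at 150 mg/kg, with no overlap between the rats. It was 0.24 ± 0.07 above vehicle (SD, n = 4, 1.18-fold, limma adjusted p = 0.00314), and 0.21 without rat 3631 (limma adjusted p = 0.0243). The difference from 150 mg/kg (0.20, limma adjusted p = 0.126) was not called. Fga was 0.40 ± 0.61 above vehicle (SD, n = 4, limma adjusted p = 0.0452) with rats at 0.04, -0.16, 0.49 and 1.21, and without rat 3631 it was 0.12 and not called. It was kept in 20 of 34 fits that left out 1 rat. Fgb was 0.26 ± 0.43 (SD, n = 4, limma adjusted p = 0.105), with 1 of its 2 probes called (0.19, limma adjusted p = 0.00608) and the other not (0.33, limma adjusted p = 0.291).

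F10 (coagulation factor X) was higher by 0.12 at 2500 mg/kg and 24 h with rats at 0.06, 0.00, 0.02 and 0.39, and without rat 3631 it was 0.03 and not called. F2 (prothrombin) and F5 (factor V) were not called. The 6 probes of F5 disagreed: 1 was called higher (0.55, limma adjusted p = 0.00976), 1 lower (-0.12, limma adjusted p = 0.0278) and 4 were not called. All 6 members of this class had positive means at 2500 mg/kg and 24 h, 0.12 to 0.40, with a median of 0.25 (0.11 without rat 3631), beside a median of 0.00 over all genes. All 6 were also positive at 24 h at 150 mg/kg (median 0.06) and 1500 mg/kg (median 0.10), against the same vehicle sample. Between 2500 and 150 mg/kg at 24 h, 0 of the 6 were called, beside 2.56% of all genes higher and 5.09% lower.

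Among the anticoagulants, fibrinolysis proteins and protease inhibitors, Itih4, an inter-alpha-trypsin inhibitor heavy chain and an acute phase protein, was the largest call. It read 0.08, 0.14, 0.69 and 0.87 at 2500 mg/kg and 24 h, against 0.03, 0.00, 0.02 and 0.20 at 150 mg/kg, so that 2 rats lay above and 2 within the range of the low dose. It was 0.44 ± 0.39 above vehicle (SD, n = 4, 1.36-fold, limma adjusted p = 0.0007), and 0.30 without rat 3631 (limma adjusted p = 0.0174). Its difference from 150 mg/kg was 0.38 (limma adjusted p = 0.0626). Its 2 probes read 0.31 and 0.57, both called.

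Plg (plasminogen) was higher by 0.11 at 2500 mg/kg and 24 h with rats at 0.01, 0.06, 0.04 and 0.32, and without rat 3631 it was 0.04 and not called. Serpina1 (alpha-1-antitrypsin) was higher at 1500 mg/kg and 12 h by 0.07 (0.05, 0.09 and 0.06; limma adjusted p = 0.0476). That call was kept in 10 of 34 fits that left out 1 rat, was lost without any 1 of its own 3 rats, and was kept in 4 of 9 other settings. A2m, Itih3, Serpinc1 (antithrombin), Serpind1 and Proc (protein C) passed in no comparison. Proc read exactly 0 on 48 of 68 arrays, which leaves its ratios uncertain.

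C3, the central component of complement, was lower than vehicle at 6 h at the highest dose and higher at 24 h at both high doses. At 6 h its log2 ratios were -0.52, -0.22, -0.58 and -0.53 at 150 mg/kg, -0.48, -0.79, -0.07 and -0.44 at 1500 mg/kg, and -0.78, -0.76, -1.26 and -1.80 at 2500 mg/kg. At 24 h they were 0.11, -0.19, -0.15 and 0.14 at 150 mg/kg, 0.72, 0.84, 1.63 and 1.66 at 1500 mg/kg, and 1.25, 0.34, 0.51 and 0.79 at 2500 mg/kg. All 12 rats were below vehicle at 6 h, and at 24 h the 8 rats of the high doses were above every rat of the low dose. The 12 rats at 6 h share 1 vehicle sample. At 6 h the difference between 2500 and 150 mg/kg was -0.69 and not called, although the rats did not overlap.

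At 2500 mg/kg the mean of C3 against vehicle was -1.15 ± 0.49 at 6 h (SD, n = 4, limma adjusted p = 3.82e-05) and 0.72 ± 0.40 at 24 h (SD, n = 4, limma adjusted p = 0.00189). The 6 h call was lost with standard errors widened for a single control animal. At 1500 mg/kg and 24 h it was 1.21 ± 0.50 higher (SD, n = 4, limma adjusted p = 7.55e-06), and 1.23 higher than at 150 mg/kg (limma adjusted p = 0.0018). At 24 h C3 was 0.74 higher at 2500 than at 150 mg/kg (limma adjusted p = 0.0456), and 0.72 without rat 3631 (limma adjusted p = 0.0709), and this call was kept in 17 of 34 fits that left out 1 rat. Against vehicle it was 0.70 without rat 3631 (limma adjusted p = 0.011). The difference between 2500 and 150 mg/kg was greater at 24 h than at 6 h by 1.43 (SE 0.32, limma adjusted p = 0.0142), where 0.3% of all genes were called in this direction, 1.58% in the other, and no other member. Scaling the arrays to equal spread ended this call. The same change for 1500 against 150 mg/kg was 1.22 (limma adjusted p = 0.191) and no member was called, with 3 higher and 0 lower at an unadjusted p under 0.05, beside calls of 0.0207% and 0.228% of all genes. From 12 to 24 h that pair of doses gave 0 members (4 and 0 unadjusted), beside 0.0% and 0.0104%.

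Cfi, C9, C4bpa, Crp and Mbl2 passed in no comparison. The list C3 belongs to, members also known from blood leukocytes, platelets or macrophages, had 2 of 8 higher and 1 lower at 2500 mg/kg and 24 h, and the members not known from blood cells had 12 of 31 higher and 2 lower, beside 10.9% and 15.6% of all genes. Without rat 3631 these were 2 and 0 of 8 and 8 and 0 of 31, beside 8.27% and 10.8%, and the difference between the lists was not tested. Of 12 positive acute phase proteins 4 were higher and 1 lower, and of 4 negative ones 2 were higher and 1 lower. Without rat 3631 these were 3 and 0, and 2 and 0. At 24 h the median over the neutrophil genes per rat ran from 0.07 to 0.82 at 2500 mg/kg, against -0.14 to 0.04 at 150 mg/kg. The part of changes in blood cells in the ratios of C3 and Apoc1 was not tested.

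**Figure D4:**
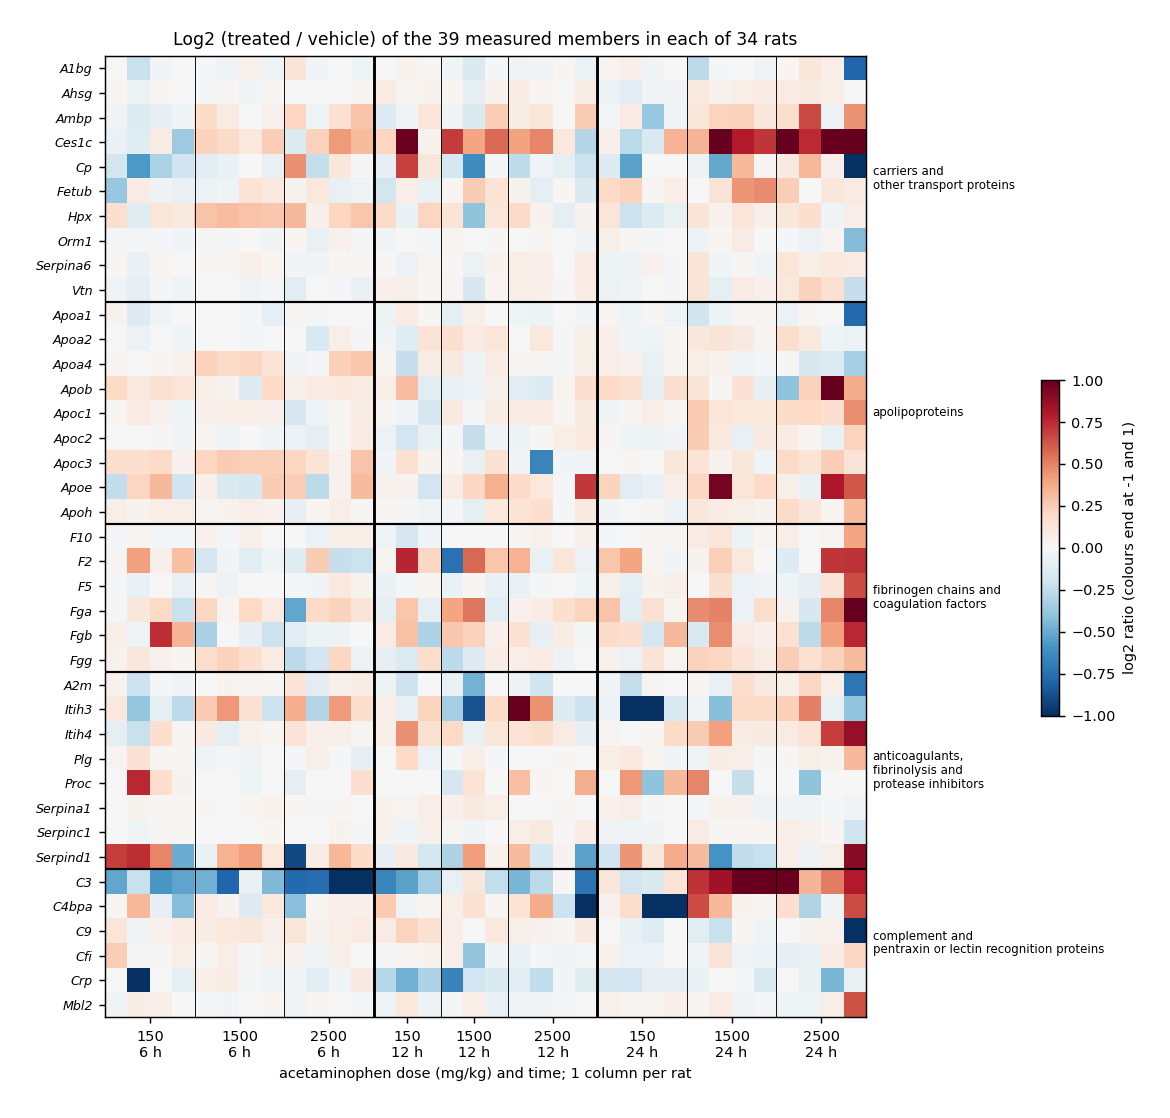
Log2 ratio of treated over vehicle (colour) of the 39 members (rows, by role) in the 34 rats (columns, by dose in mg/kg and time); red is above and blue below vehicle, and colours end at -1 and 1. C3 is red at 24 h and the high doses and blue at 6 h. Ces1c is red at 24 h and the high doses and also in rats at 12 h, among them rat 4128 at 150 mg/kg (0.98). The last column is rat 3631.

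Across the early times, calls were few. At 6 h, 1500 mg/kg gave 3 members higher (Hpx, Apoa4 and Apoc3) and 0 lower, beside 3.48% and 9.24% of all genes, and 2500 mg/kg gave Hpx higher and C3 lower, beside 2.54% and 5.18%. At 12 h, 1500 mg/kg gave Ces1c and Serpina1 higher and 0 members lower, beside 1.48% and 3.36% of all genes, and 2500 mg/kg gave 0 members, beside 0.0932% of all genes higher and 1.29% lower (2 and 2 members at an unadjusted p under 0.05). At 150 mg/kg limma called 0 members at 6 h (3 higher and 3 lower at an unadjusted p under 0.05), beside 1.07% of all genes higher and 0.932% lower, and 0 at 12 h (3 and 3), beside 0.963% and 0.922%. Comparisons with vehicle at one time share 1 control sample. Between doses limma called 0 members at 6 h and 0 at 12 h. At 6 h, 2500 against 150 mg/kg had 0 members higher and 1 lower at an unadjusted p under 0.05, beside calls of 0.0207% of all genes higher and 0.124% lower, and 1500 against 150 mg/kg had 2 and 1, beside 0.0207% each way. At 12 h the same pairs had 2 and 1, and 0 and 0, beside 0.0% of all genes. For 2500 against 1500 mg/kg there were 0 higher and 2 lower at each of these times, beside 0.0% of all genes.

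Liver genes outside the list, chosen by what they do, were counted at 2500 mg/kg and 24 h in the same way, where 10.9% of all genes were higher and 15.6% lower. Of 42 other liver-made plasma proteins measured, 11 (26.2%) were higher and 1 (2.38%) lower, with a median of 0.08, and 9 and 2 without rat 3631. Tf (transferrin, the iron carrier) was 2.33 ± 0.70 above vehicle at 2500 mg/kg (SD, n = 4, limma adjusted p = 9.71e-08), Rbp4 (retinol-binding protein) 1.51 ± 0.53 (SD, n = 4, limma adjusted p = 2.84e-06) and Ttr (transthyretin) 0.55 ± 0.37 (SD, n = 4, limma adjusted p = 1.94e-05). Among the members, Ces1c and C3 alone exceeded the 0.55 of Ttr. Without rat 3631 the 3 values were 2.57, 1.61 and 0.38, all called. C1r, a complement protease, was lower at -0.21 ± 0.08 (SD, n = 4, limma adjusted p = 4.76e-05).

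Of 45 hepatocyte intracellular genes, 8 (17.8%) were higher and 1 (2.22%) lower, with a median of 0.05, and 9 were higher and 0 lower without rat 3631. Fabp1 (liver fatty acid-binding protein) was 1.08 ± 0.38 above vehicle (SD, n = 4, limma adjusted p = 0.00774), Arg1 (arginase, also known from neutrophils) 0.76 ± 0.23 (SD, n = 4, limma adjusted p = 0.00224), Slc10a1 (the bile acid transporter NTCP) 0.28 ± 0.14 (SD, n = 4, limma adjusted p = 0.00181) and Asgr2 (a subunit of the asialoglycoprotein receptor) 0.15 ± 0.09 (SD, n = 4, limma adjusted p = 0.0031). Without rat 3631 they were 0.995, 0.67, 0.23 and 0.12, all called. None of the 45 was called between 2500 and 150 mg/kg at 24 h, where 2.56% of all genes were higher and 5.09% lower. Among 11 liver transcription factors, 2 (18.2%) were higher and 1 (9.09%) lower, with Cebpa at 0.44, Foxa1 at 0.08 and Hnf4a at -0.17, and none of these was called without rat 3631.

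**Figure D5:**
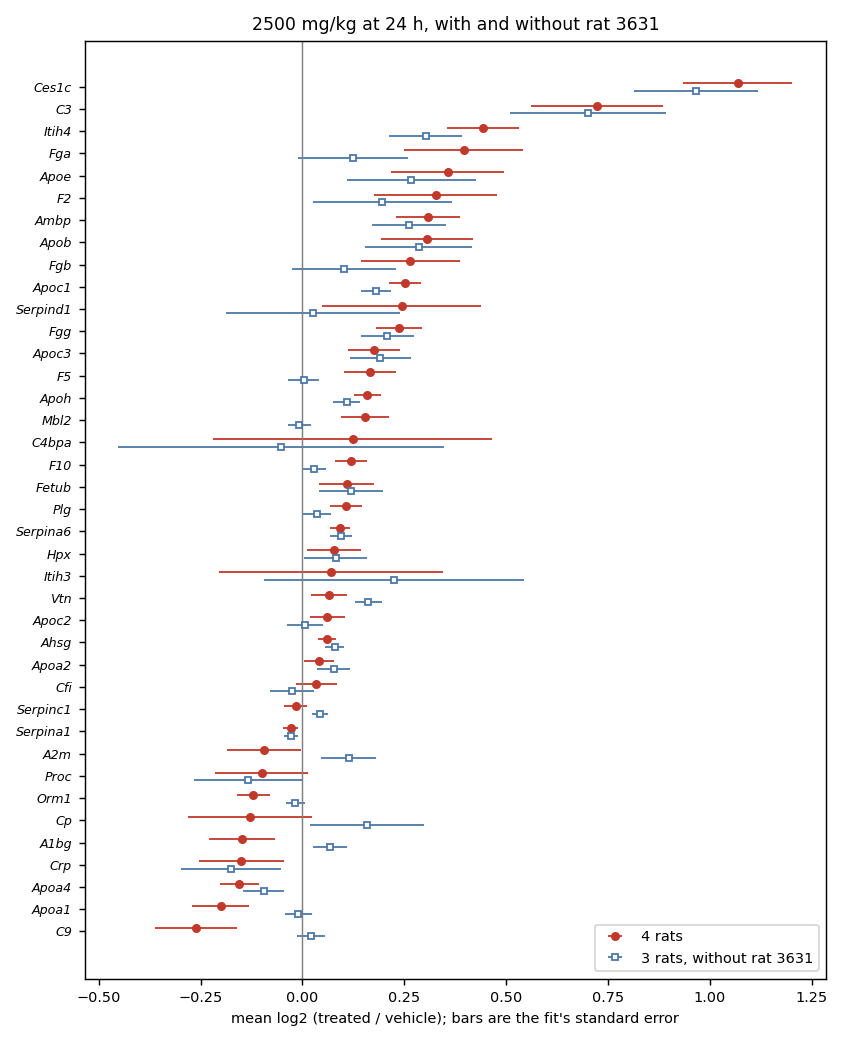
Mean log2 ratio of treated over vehicle at 2500 mg/kg and 24 h (horizontal axis, bars are the fit's standard error) for the 39 members, from all 4 rats (filled) and from 3 rats without rat 3631 (open). Ces1c, C3, Itih4 and Apoc1 stay apart from 0, while the means of Fga, F10, Plg and Apoa1 move to 0.12, 0.03, 0.04 and -0.01.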

How the data were processed

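RNA from rat blood was hybridised with a vehicle control RNA on 2-colour arrays, 2 dye-swapped arrays for each of 34 rats (68 arrays). The values are log10 ratios that the authors deposited, limited to -2 and 2, with array medians from -0.00352 to 0. Background correction, normalization and the direction of the ratio are not given in the sources used here, and signal levels were not used here. Of all values 2.76% were exactly 0 and 0.493% stood at the limit. Of 22075 probes 12750 carried 1 gene, 5 several and 9320 none. Gene names were updated by Entrez number, for 12720 probes, to the GRCr8 annotation.

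Ratios were converted to log2, turned to treated over vehicle by dye, averaged over both arrays of a rat and over probes of a gene (9653 genes). limma 3.58.1 (R 4.3.3) fitted the 9 group means over 34 rats (25 residual degrees of freedom). The fit gave 24 comparisons: 9 with vehicle, 9 between doses and 6 of dose differences between times. P-values were adjusted by Benjamini-Hochberg over all genes, and a call is an adjusted p under 0.05. The test against vehicle leaves out the spread of the control, which was 1 RNA sample a time. The number of arrays limits the precision. On simulated data for 2500 mg/kg at 24 h against vehicle, a small part of 9653 genes was given log2 changes of 0.25, 0.5, 1 or 2. Of these, 44%, 82%, 96% and 100% were called, and 0.063% of unchanged genes. The simulated noise was drawn separately for each rat, without the shared control sample or dye effects. These shares therefore do not give the rate of false or missed calls in the real data.

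Alternatives were 9 processing settings and each rat left out. The members and lists were chosen with earlier results of these data known. By rule, values are given for every member that passed in any comparison, with per-rat values for those called most often at the high doses, and for up to 4 genes of each other liver list by smallest adjusted p at 2500 mg/kg and 24 h, with Tf, Ttr and Rbp4 in any case; values of members not called were chosen after they were seen. Promoter windows came from RefSeq. Files were read with R's data.table package, version 1.17.8, and handled with Python 3.11.15, pandas 2.3.3 and numpy 2.4.6, and plots with matplotlib 3.10.9.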

Additional observations from a re-analysis of the deposited data

Results flagged for a closer look

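The 33 group values checked were those of members already called against vehicle and the medians over members, in groups of 4 rats. In 6 of them a single rat stood far from the others by Dixon's test of the gap over the range. Chance marks about 1 in 20 of values not chosen this way, so the 6 cannot be set against that rate. At 2500 mg/kg and 24 h, rat 3631 was the far one in 5 of the 6: Apoa1 at -0.77, Apoc1 at 0.46, F10 at 0.39, Plg at 0.32 and the median over members at 0.21 (log2 treated over vehicle). The calls of Apoa1, F10 and Plg were lost without rat 3631, so they entered the check through it. At 1500 mg/kg and 24 h, rat 3623 stood at 0.26 for Apoc1.

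The difference between 2500 and 150 mg/kg changed with time for 2 members, by the test of that change in limma. For C3 it was 1.43 greater at 24 h than at 6 h (limma adjusted p = 0.0142), and every left-out rat kept the call. For Ces1c it was 1.31 greater at 24 h than at 12 h (limma adjusted p = 0.0313), and the call was lost in 9 of 34 fits that left out 1 rat (rats 4127, 4128, 4137, 4138, 3617, 3618, 3619, 3630 and 3631). With arrays scaled to equal spread the calls of both members were lost.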

How the results depend on the processing

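The calls of Ces1c, Apoc1, Fgg, Itih4 and C3 against vehicle at 2500 mg/kg and 24 h, of Ces1c and C3 at 1500 mg/kg and 24 h, and of Ces1c between 2500 and 150 mg/kg at 24 h were kept in every setting and with every rat left out, and no result reversed. With only the rats of the times compared in the fit, the members higher were 2 at 150 mg/kg and 6 h, 3 at 2500 mg/kg and 6 h, 0 at 1500 mg/kg and 12 h, 2 at 1500 mg/kg and 24 h and 6 at 2500 mg/kg and 24 h (0 lower), 1 for 2500 against 150 mg/kg at 24 h, 0 for 1500 against 150 mg/kg at 24 h and 0 for the change between 12 and 24 h. With standard errors widened for a control pool or for a single control animal, the members higher were 0 at 1500 and 2500 mg/kg at 6 h, 0 at 1500 mg/kg and 12 h, 2 at 1500 mg/kg and 24 h and 6 at 2500 mg/kg and 24 h (0 lower), and with a single animal C3 at 2500 mg/kg and 6 h was lost too (0 lower). With arrays scaled to equal spread the members higher were 3 at 2500 mg/kg and 6 h, 1 at 150 mg/kg and 12 h (1 lower), 0 at 1500 mg/kg and 12 h, 1 for 1500 against 150 mg/kg at 24 h, and 0 for both changes over time. In that setting 11 were higher and 2 lower at 2500 mg/kg and 24 h, with the calls of Apob, Apoc3, F10, Plg and Apoa4 lost, and 5 higher between 2500 and 150 mg/kg at 24 h, with those of Ambp and C3 lost. With the dye profile removed, or a robust prior, 1 was higher at 1500 mg/kg and 12 h. Where neither the samples nor the standard errors show it, the cause was not tested. At 2500 mg/kg and 24 h, 1.64% of all genes were higher and 6.12% lower with only the 24 h rats in the fit. With standard errors widened for the pool these were 3.11% and 7.22%. The other counts here have no share of all genes beside them and show only the dependence on the setting.

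With each rat left out in turn, the members higher ranged from 2 to 5 at 1500 mg/kg and 6 h (0 to 1 lower), 0 to 1 at 2500 mg/kg and 6 h, 0 to 1 at 150 mg/kg and 12 h (0 to 1 lower), 0 to 2 at 1500 mg/kg and 12 h (0 to 1 lower), 0 to 1 at 2500 mg/kg and 12 h (0 to 1 lower), 3 to 5 at 1500 mg/kg and 24 h, and 9 to 16 at 2500 mg/kg and 24 h. The 9 came without rat 3591 or 3592 of 1500 mg/kg and 6 h, which share the estimate of spread, and the 16 without rat 3628. The members lower there ranged from 0 without rat 3631 to 5 without rat 3629. Between 2500 and 150 mg/kg at 24 h 5 to 7 were higher and 0 to 1 lower, between 1500 and 150 mg/kg 1 to 3 higher, for the change from 6 to 24 h 1 to 3 and from 12 to 24 h 0 to 1. For these fits the shares of all genes are given above only without rat 3631 at 2500 mg/kg and 24 h. The ranges therefore show dependence on single rats and cannot show an excess over all genes. No paired analysis was possible because the rats' numbers are unique to their groups.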

Other observations

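Some members without a call held single rats far from the rest. Itih3 at 150 mg/kg and 24 h read -0.05, -1.27, -2.54 and -0.16, and C4bpa read 0.05, 0.18, -3.71 and -1.38. The differences between 2500 and 150 mg/kg at 24 h were 1.07 for Itih3 (limma adjusted p = 0.0891) and 1.34 for C4bpa (limma adjusted p = 0.0893), so that neither passed. Itih3 also had 1 rat at 1.57 at 2500 mg/kg and 12 h, and Crp 1 rat at -1.02 at 150 mg/kg and 6 h.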
